A study of Homo sapiens with 59 samples.

Results

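The genes described here are 10 methyltransferases of chromatin that take their methyl group from S-adenosylmethionine (SAM). They are DNMT1, DNMT3A and DNMT3B, which methylate DNA, EZH2, which methylates H3K27, EHMT1, EHMT2, SUV39H1 and SETDB1, which methylate H3K9, KMT2A, which methylates H3K4, and DOT1L, which methylates H3K79. They were chosen by name as 10 of the 34622 gene names in the data, and all 10 were present and tested in every comparison. The cells were Jurkat, an established human T cell leukaemia line grown in suspension, sequenced as bulk RNA on day 3. In the 7 restricted groups (5 libraries each) the medium held 25% of histidine, methionine, phenylalanine, tryptophan, isoleucine, leucine or valine. The histidine, methionine, phenylalanine and tryptophan groups each had their own control of 5 libraries, and a single control for the branched-chain amino acids (BCAA control, 4 libraries) served isoleucine, leucine and valine. The labels do not state what the control medium contained. They also leave unsaid whether replicates are independent cultures. The p-values therefore rest on library-to-library spread alone, part of which may be technical.

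SAM is made from methionine and adenosine triphosphate by methionine adenosyltransferase, whose catalytic subunit in most cells is MAT2A. When a methyltransferase has used SAM, S-adenosylhomocysteine is left, which inhibits many of these enzymes until AHCY hydrolyses it. DNMT1 copies DNA methylation onto the new strand after replication, and DNMT3A and DNMT3B can methylate unmethylated DNA. EZH2 is the catalytic subunit of Polycomb repressive complex 2. EHMT1 (GLP) and EHMT2 (G9a) work as a heterodimer, SUV39H1 acts at constitutive heterochromatin, and SETDB1 is recruited by TRIM28 to silence retroelements. KMT2A (MLL1) belongs to the COMPASS family, and DOT1L is linked to transcription elongation. Only mRNA was measured here, neither enzyme activity nor SAM nor any methyl mark.

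The values are normalised counts, which summed to between 14950000 and 20540000 per library. Each amino acid has its own table, scaled on its own, so levels are compared only within a table, and a fold change is given on the log2(normalised count + 1) scale, restricted minus control. All 12 T cell markers were present in every table, at summed levels of 49500 to 92200. The 4 myeloid markers summed to 0 to 34.8 and the 3 erythroid markers to 0 to 73.5. Higher sums were reached by the 4 B cell markers (202 to 841), the 4 epithelial markers (70.9 to 1240) and the 4 fibroblast markers (134 to 6450). The highest fibroblast sum was in the histidine controls (272 to 6450, against 206 to 327 in restricted libraries). The epithelial sums there were 128 to 984 in controls and 70.9 to 98.2 in restricted libraries, without overlap. The phenylalanine controls reached 1240 for the epithelial markers (restricted libraries up to 288) and 1960 for the fibroblast markers (up to 326). In 4 of the 59 libraries (BCAA control 1, phenylalanine control 1, phenylalanine restricted 2 and valine restricted 2) long transcripts were low. Genes with a coding transcript of at least 8000 bases deviated there from their group by a median of -0.63 to -0.43 on the log2 scale, against -0.19 to 0.11 in the others, and ribosomal protein genes by 0.55 to 1.08, against -0.25 to 0.39.

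Methionine and tryptophan restriction were the conditions under which most of these mRNAs changed. Under methionine restriction 7 of the 10 were called (adjusted p below 0.05), 1 higher and 6 lower, where 53.2% of all tested genes were called (27.8% higher and 25.4% lower). Under tryptophan restriction 8 of the 10 were called, 1 higher and 7 lower, against 51.3% of all genes (23.6% higher and 27.7% lower). In both conditions most tested genes were called, so these counts do not by themselves set the 10 apart. The median log2 fold change of the 10 was -0.40 under methionine and -0.47 under tryptophan restriction, against 0.02 and 0.03 over all genes. The T cell markers summed to 50188 to 56526 in methionine-restricted libraries and 54758 to 62496 in their controls, which overlapped. They summed to 50123 to 53483 in tryptophan-restricted libraries and 60974 to 67528 in their controls, which did not overlap. Total normalised counts were also lower there, 15270000 to 16040000 in restricted libraries and 18180000 to 18820000 in controls. Of the 12 markers, 3 were called higher and 5 lower under tryptophan restriction (median -0.05). With libraries scaled to equal totals 6 were higher and 3 lower (median 0.19). Under methionine restriction 1 was higher and 5 lower (median -0.16), and with equal totals 3 higher and 1 lower (median -0.03). The B cell markers summed to 669.7 to 841 in methionine-restricted libraries and 202 to 259 in controls, and to 383 to 532 in tryptophan-restricted libraries and 272 to 342 in controls. The epithelial markers summed to 212 to 228 in methionine-restricted libraries and 98.4 to 183 in controls, and the fibroblast markers to 258 to 360.3 in tryptophan-restricted libraries and 151 to 240.5 in controls. For the epithelial markers under tryptophan (160.0 to 199 in restricted libraries, 153 to 217 in controls) and the fibroblast markers under methionine restriction (134 to 259 in restricted libraries, 190.1 to 319.6 in controls) the ranges overlapped. Of the lists, 1 B cell and 1 epithelial marker were at 0 in all libraries of both tables, and 1 fibroblast marker in those of the tryptophan table. These sums rest on few tested markers. Of the B cell list, 2 were tested under methionine and 1 under tryptophan restriction, and only CD79A was called (1.72 and 0.64). COL1A1 was the 1 fibroblast marker tested under tryptophan restriction, and it was called (0.72). The 2 epithelial markers tested under methionine restriction were both called higher. The part of any of these lists in the members' values was not tested. In bulk RNA, fewer cells in a given state and less RNA per cell cannot be told apart. Elsewhere few members were called. There was 1 (higher) under histidine restriction, where 27.9% of genes were called, 1 (lower) under phenylalanine (10.2%, with 6.09% lower), 1 (higher) under leucine (7.75%, with 3.41% higher and 4.33% lower) and 1 (higher) under valine (12.5%, with 5.13% higher and 7.36% lower). Under isoleucine no member and no gene (0%) passed with limma, although 872 genes had an unadjusted p under 0.05, and the smallest adjusted p was 0.0582. No other tool was run on that comparison.

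**Figure D1:**
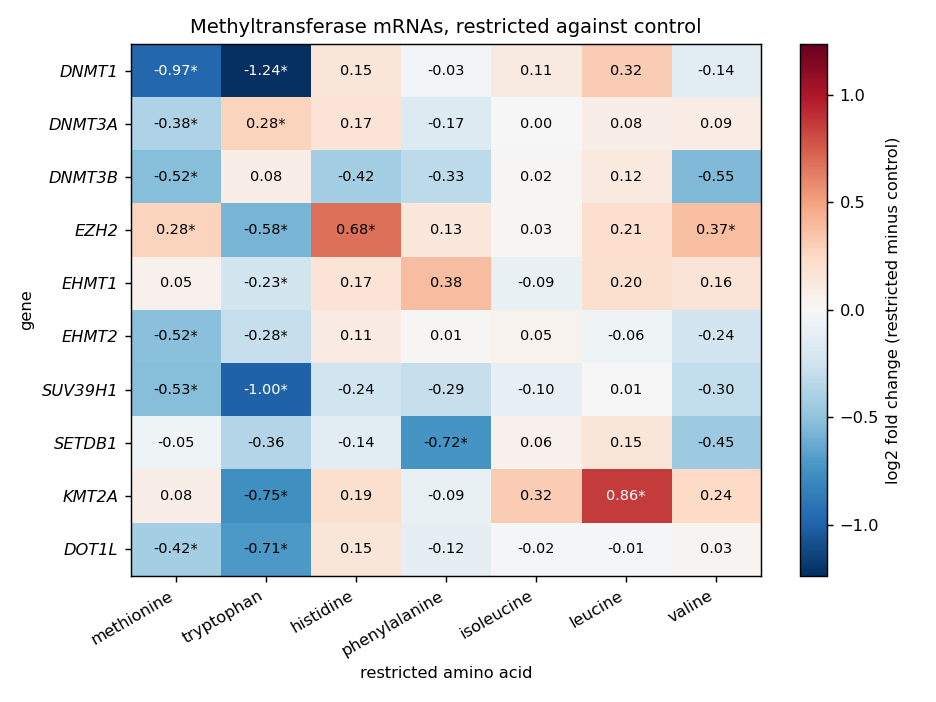
Log2 fold change (restricted minus control, on log2 of normalised count + 1) of the 10 methyltransferases, 1 row per gene, under restriction of 7 amino acids, 1 column each. Asterisks mark limma adjusted p below 0.05; the darkest cell is DNMT1 under tryptophan restriction at -1.24.

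DNMT1, on the minus strand of chromosome 19 (10133345 to 10231286, GRCh38), fell under methionine and tryptophan restriction and was called under none of the 5 other amino acids. It stood at 1018, 1337, 1162, 827 and 1126 normalised counts in the methionine-restricted libraries, against 2877, 2689.8, 1434, 1963 and 1970.2 in the methionine controls. Every restricted library lay below every control, and control 3 was the lowest of its group. The mean was 1094 ± 188 in restricted cells and 2187 ± 590.1 in controls (SD, n = 5 each), a log2 fold change of -0.97 (SE 0.17, adjusted p = 2.83e-04). With tryptophan at 25% the libraries held 1532, 1614, 1309, 1409 and 1478, against 3512, 3778, 2817, 3581 and 3666 in the tryptophan controls. These groups did not overlap either, and the restricted mean was 42.3% of control (-1.24, SE 0.08, adjusted p = 2.32e-08). The other fold changes of DNMT1 ran between -0.14 under valine and 0.32 under leucine restriction, with adjusted p of 0.124 or more. The histidine controls were spread widely, at 2045, 2062, 1404, 2093 and 872, against 1973, 1921, 1716, 1699.9 and 1635 in the histidine-restricted libraries, and control 5 was the lowest.

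DNMT3A (chromosome 2, 25227855 to 25342590, minus strand) moved in opposite directions under these 2 amino acids. In the methionine-restricted libraries it was 2503, 2408, 2429, 2322 and 2192, against 3260.3, 3146, 2784, 3300.1 and 2937 in the controls, so that the highest restricted library lay below the lowest control. This was a fall by 0.38 on the log2 scale (SE 0.07, adjusted p = 2.76e-04). Under tryptophan restriction it rose by 0.28 (SE 0.07, adjusted p = 0.0049), with 2981, 3209.8, 2778, 2844 and 2543 in restricted libraries and 2158, 2334, 2418, 2301 and 2637 in controls. There restricted library 5 and control 5 overlapped. The sizes depended on scaling, and with equal totals the change of DNMT3A was -0.25 (adjusted p = 0.0134) under methionine and 0.52 (adjusted p = 6.91e-05) under tryptophan restriction. DNMT3A averaged between 3207 and 3453 in the restricted cells of the other 5 amino acids, against 3051 to 3633 in their controls, and was called under none of them.

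DNMT3B (chromosome 20, 32762385 to 32809356, plus strand) was the scarcest of the 10. Per kilobase of transcript it held 59.0 normalised counts in methionine-restricted cells and 86.3 in their controls, whereas DNMT3A held 661 in restricted cells and 859.7 in controls. Its counts were 215, 263, 240.3, 303 and 201 under methionine restriction, against 486, 310.4, 239.8, 353 and 398 in controls, and the ranges overlapped. The fall of 0.52 (log2, SE 0.18, adjusted p = 0.0216) ended as a call (adjusted p up to 0.0808) when libraries were scaled to equal totals, and when either of restricted libraries 1 and 5 or either of controls 1 and 5 was dropped. DNMT3B was also at 68.4% of control under valine restriction, where the ranges stood apart (140.2, 82.3, 151, 139 and 133 in restricted libraries, 157, 257, 176 and 164 in the BCAA controls) but the adjusted p was 0.131. Under histidine restriction it was at 72.6% of control (adjusted p = 0.108), and without histidine control 5, the lowest of its controls at 172, it was called (-0.61, adjusted p = 0.0048).

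**Figure D2:**
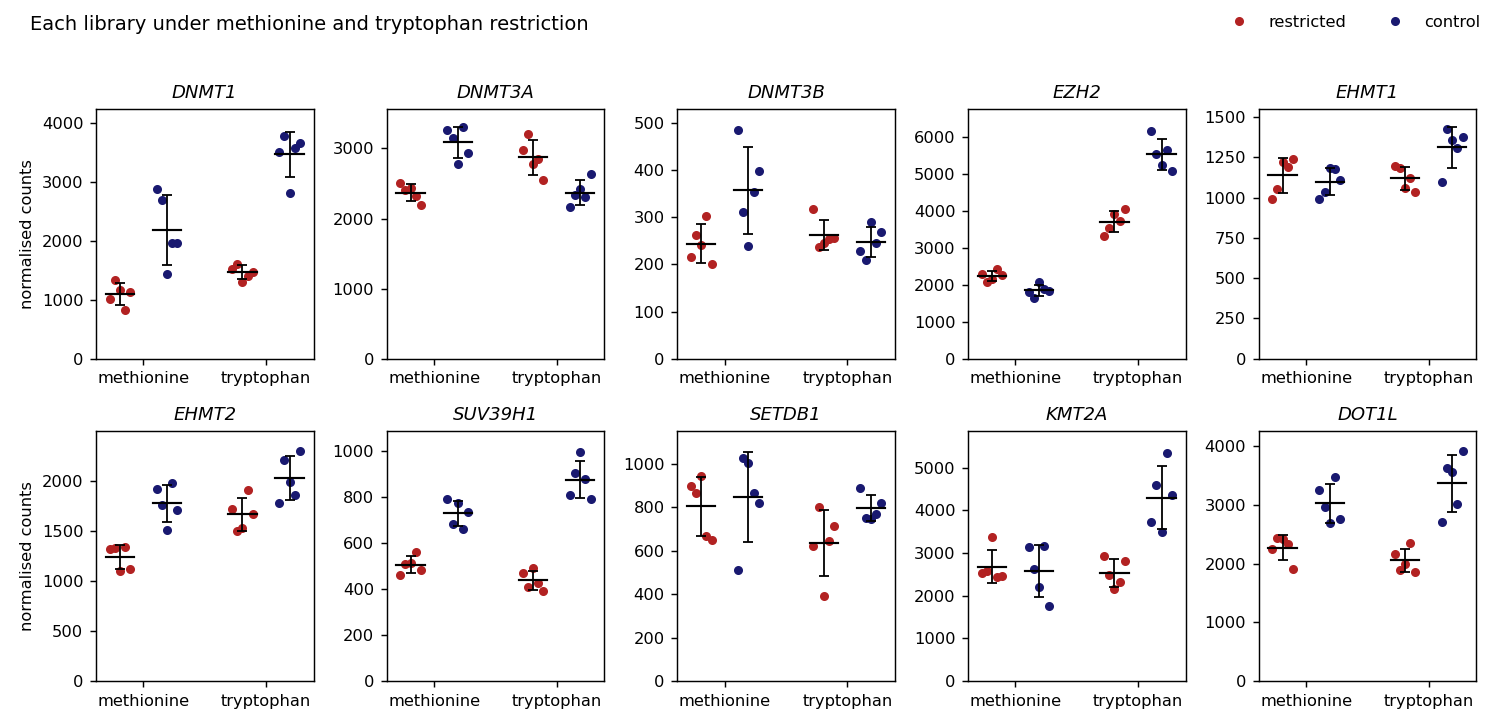
Normalised counts of each gene in every library under methionine and tryptophan restriction. Points are libraries (red restricted, left; dark blue control, right), long bars are means and whiskers SD, n = 5 per group; axes start at 0. DNMT1, SUV39H1 and DOT1L separate completely in both tables, EZH2 separates in opposite directions, and DNMT3B, EHMT1 and SETDB1 overlap in both.

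EZH2 (chromosome 7, 148807383 to 148884321, minus strand) was the member that rose most often, under histidine, methionine and valine restriction, and it fell under tryptophan restriction. Under histidine restriction it stood at 3167, 2772, 2882, 2905 and 2905 normalised counts, against 1911, 1872, 1655, 1906 and 1763 in the histidine controls. The lowest restricted library exceeded the highest control by a wide margin, and the change of 0.68 (SE 0.06, adjusted p = 5.23e-06) kept its call under all 15 alternative settings. Methionine restriction gave 2283, 2089, 2153, 2429.8 and 2252, against 1818, 1646, 2076, 1889 and 1841 in controls, which just separated (0.28, SE 0.07, adjusted p = 0.00519). The mean under valine restriction was 3095 ± 113 (n = 5), against 2395 ± 192 in the BCAA controls (SD, n = 4). That rise (0.37, adjusted p = 0.0332) was no longer called without the filter on low genes (adjusted p = 0.0668), nor without any 1 of restricted libraries 1, 3, 4 and 5 or BCAA controls 3, 4 and 5 (adjusted p up to 0.0927). With tryptophan at 25% EZH2 was 3312, 3549.8, 3906, 3720.0 and 4058, against 6151, 5531, 5231, 5654 and 5077 in the tryptophan controls, a log2 fold change of -0.58 (SE 0.07, adjusted p = 6.84e-06). The 2 tryptophan groups did not overlap. The fall was called in all 15 alternative settings, but with equal totals it was -0.33 (adjusted p = 4.19e-04). A processed pseudogene, EZH2P1, resembles EZH2, and how reads were divided between them is not known.

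The promoter of EZH2 is shown because EZH2 was the only member called higher under methionine restriction. That of SUV39H1 is shown as an example of a member called lower under both methionine and tryptophan restriction, as DNMT1, EHMT2 and DOT1L also were. Both are stretches outside annotated exons, ending 30 bases before the RefSeq EZH2 start and at the SUV39H1 start, from RefSeq (GRCh38.p14). They are written 5′ to 3′ on the gene's strand, with CCAAT on either strand (ATTGG on the reverse) in capitals.
EZH2, chr7:148884322-148884541, minus strand: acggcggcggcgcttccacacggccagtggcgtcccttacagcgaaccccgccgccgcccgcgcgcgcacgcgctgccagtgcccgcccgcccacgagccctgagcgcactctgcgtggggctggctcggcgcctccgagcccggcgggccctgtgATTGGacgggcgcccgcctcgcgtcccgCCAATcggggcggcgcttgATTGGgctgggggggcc
SUV39H1, chrX:48695304-48695553, plus strand: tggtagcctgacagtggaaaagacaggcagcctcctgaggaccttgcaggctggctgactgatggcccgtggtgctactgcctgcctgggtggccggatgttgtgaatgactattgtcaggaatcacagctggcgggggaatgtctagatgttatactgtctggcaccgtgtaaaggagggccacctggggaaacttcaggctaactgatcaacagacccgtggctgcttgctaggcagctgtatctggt
CCAAT, the word bound by the NF-Y factor, occurs 3 times in the printed EZH2 stretch and not in the printed SUV39H1 stretch. Both genes hold it beyond these stretches, EZH2 in 1 more match 13 bases before its start and SUV39H1 in a match 38 bases before its other annotated start, so the stretches do not set the genes apart. It was found on either strand in 32% of 35116 promoter windows of 250 bases. The E2F words TTTCCCGC, TTTGGCGC, TTTCGCGC and TTTGCCGC, searched on both strands, were in none of the windows of the 9 members with an entry (all but DOT1L). They were in 2.79% of all windows, and in 10 of the 21 DNA replication genes with an entry. The word TTGCATCA, a CARE-type element bound by ATF4, was in no member window and in 0.772% of all. These are matches of letters and say nothing of binding.

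Among the H3K9 enzymes, SUV39H1 (chromosome X, 48695554 to 48709012, plus strand) fell furthest. It stood at 460.2, 508, 509.8, 558 and 483 in methionine-restricted libraries, against 789, 681, 772, 659.5 and 733 in controls. The groups were apart and the spread within each was small (-0.53, SE 0.08, adjusted p = 1.25e-04). Tryptophan restriction left 467, 407, 492, 427 and 389, against 808, 904, 993, 875 and 790.3 in controls, a mean of 49.9% of control (log2 fold change -1.001, SE 0.09, adjusted p = 3.63e-07). In the histidine, phenylalanine and valine tables the SUV39H1 means were 84.3%, 81.6% and 80.4% of control, with adjusted p of 0.122, 0.157 and 0.179, so no change was called. SUV39H2, its paralog, was at 388 ± 33.8 in methionine-restricted cells and 388 ± 35.5 in controls (SD, n = 5 each; adjusted p = 0.994), but fell by 1.81 (log2, adjusted p = 5.79e-06) under tryptophan restriction. SUV39H2 was singled out after its values were seen.

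EHMT2 fell under methionine restriction while its partner EHMT1 was not called. EHMT2 (chromosome 6, 31879759 to 31897687, minus strand) was 1316, 1331, 1094, 1339 and 1118 in restricted libraries, against 1913, 1753, 1511, 1979 and 1708 in controls. All 5 restricted libraries were below all 5 controls (-0.52, SE 0.09, adjusted p = 2.63e-04). EHMT1 (chromosome 9, 137618963 to 137870016, plus strand) was 992, 1050.2, 1222, 1190.0 and 1236 in restricted libraries, against 992, 1033, 1186, 1175 and 1106 in controls, with nearly the same ranges (0.05, SE 0.08, adjusted p = 0.653). Under tryptophan restriction EHMT2 averaged 1663 ± 164 against 2026 ± 222 in controls, and EHMT1 1119 ± 71.9 against 1312 ± 128 in controls (SD, n = 5 each). Both were called lower (-0.28, adjusted p = 0.0126, and -0.23, adjusted p = 0.0258), with overlapping ranges. Scaling each library to the same total left EHMT2 at -0.04 (adjusted p = 0.714) and turned EHMT1 to 0.02 (adjusted p = 0.852), so neither direction is firm. EHMT1 also lost its call without any 1 of restricted libraries 3 and 5 or controls 2, 3 and 5. EHMT1, EHMT2 and SUV39H1 share exonic bases with other annotated transcripts, and whether reads were assigned by strand is not stated, so their levels are uncertain to that extent. The antisense partner EHMT2-AS1 averaged only 7.43 in methionine-restricted cells and 15.0 in controls.

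SETDB1 (chromosome 1, 150926263 to 150964744, plus strand) changed under phenylalanine restriction. It held 707, 595, 846, 610.1 and 746 in restricted libraries, against 1257, 1243, 976, 996 and 1321 in the phenylalanine controls. The groups did not overlap, and the fall of 0.72 on the log2 scale (SE 0.13, adjusted p = 0.00443) was called in all 16 alternative settings, including without the 2 libraries of that table that were low in long transcripts. Under tryptophan restriction SETDB1 was 622, 803, 392, 647 and 714, against 889, 753, 748, 769 and 819 in controls, with library 3 the lowest (-0.36, SE 0.15, adjusted p = 0.0575). Leaving out restricted library 2 or 5 brought it under the threshold (adjusted p = 0.0188 or 0.047). In the methionine table its log2 fold change was -0.05 (SE 0.17), and control 1 was the lowest of all 10 libraries at 509.7. CERS2, which overlaps SETDB1 on the other strand, averaged 4258 in phenylalanine-restricted cells and 5162 in controls (-0.26, adjusted p = 0.232).

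**Figure D3:**
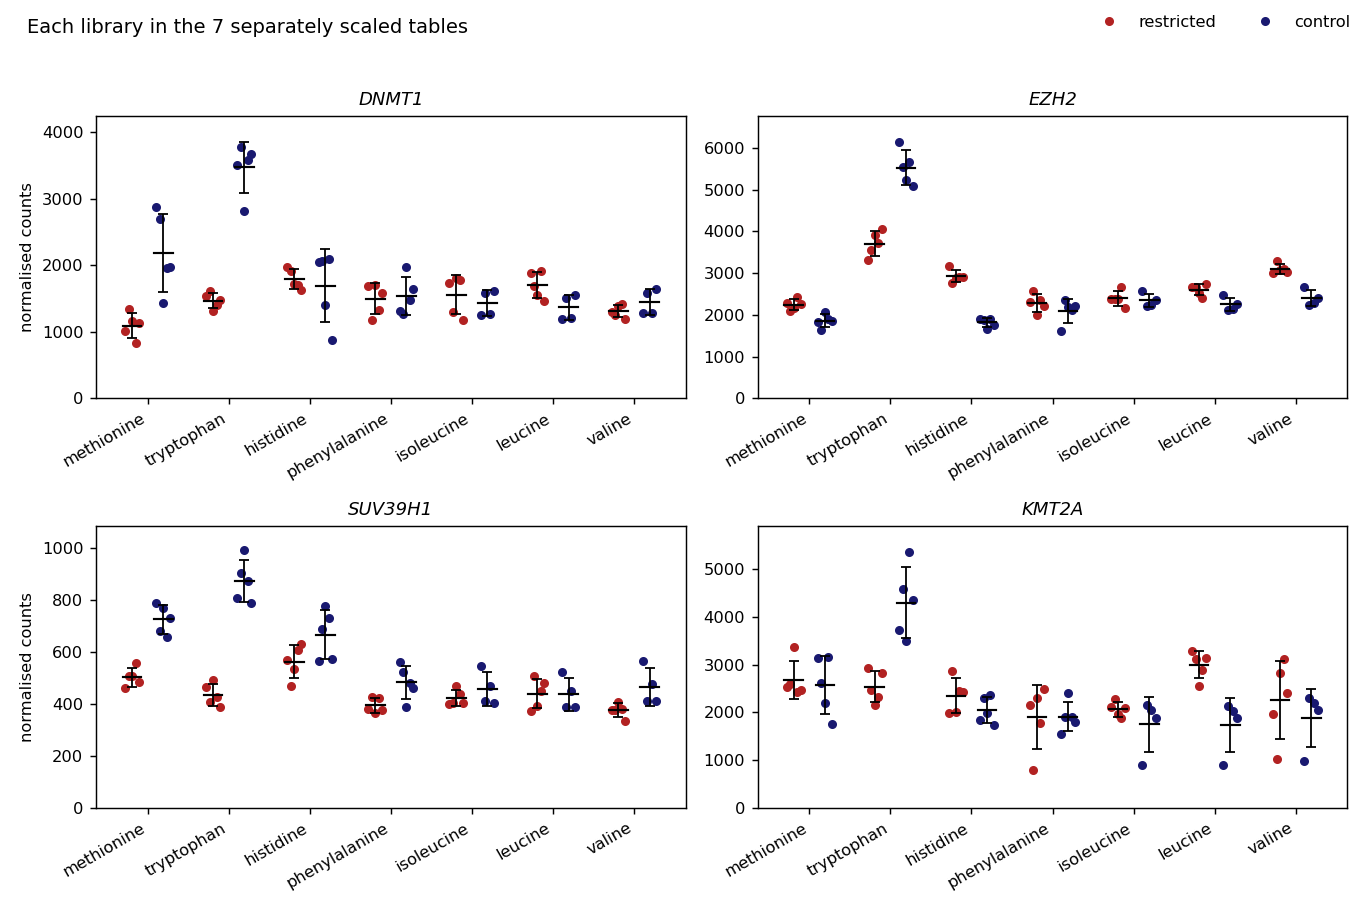
Normalised counts of DNMT1, EZH2, SUV39H1 and KMT2A in each library of the 7 tables (red restricted, left; dark blue control, right; long bars are means and whiskers SD; 5 restricted libraries per table and 4 or 5 controls). Tables were scaled separately, and the BCAA controls recur in the isoleucine, leucine and valine tables; the low KMT2A points there are BCAA control 1 and valine restricted 2.

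KMT2A (chromosome 11, 118436464 to 118526832, plus strand) has the longest mRNA of the 10, up to 16628 bases. It fell under tryptophan restriction, with 2926, 2473, 2148, 2320.0 and 2821 against 3729.9, 4592, 3487, 5350.3 and 4349 in controls, ranges that did not overlap (-0.75, SE 0.11, adjusted p = 6.71e-05). Under leucine restriction it was 3291, 3118, 2561, 2879.7 and 3149, against 888, 2136, 2029 and 1886 in BCAA controls 1, 3, 4 and 5. All leucine-restricted libraries were higher than all controls, and BCAA control 1, 1 of the 4 libraries low in long transcripts, was far below the other controls. The rise of 0.86 (SE 0.22, adjusted p = 0.0325) was 0.57 without that library (adjusted p = 0.00233). It was not called without any 1 of the 5 restricted libraries or without BCAA control 5, with adjusted p up to 0.0765. In the phenylalanine table restricted library 2 was also low at 791, and in the valine table restricted library 2 was at 1026. Without BCAA control 1 the KMT2A change under valine restriction was -0.05, against 0.24 with it, and was called in neither. KMT2A was not called under methionine restriction (2678 ± 391 in restricted cells and 2576 ± 611 in controls, SD, n = 5 each). A second protein-coding annotation on the same strand, AP001267.5, shares 3654 exonic bases with it, so its level is uncertain.

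DOT1L (chromosome 19, 2164149 to 2232578, plus strand) was lower, as DNMT1 was, under methionine and tryptophan restriction. The methionine-restricted libraries held 2249.9, 2436, 2420.4, 2330.3 and 1909, against 3255, 2967, 2692, 3481 and 2761 in controls, without overlap (-0.42, SE 0.09, adjusted p = 0.00123). The tryptophan-restricted libraries held 2164, 1892, 2001, 2347 and 1861, against 2705, 3631, 3556, 3023 and 3915 in controls, likewise apart (-0.71, SE 0.10, adjusted p = 3.29e-05; -0.46 with equal totals, adjusted p = 0.00144). The other 5 fold changes lay between -0.12 (phenylalanine) and 0.15 (histidine). In the phenylalanine table control 1 stood at 1698, below all 9 other libraries. Without the 2 libraries low in long transcripts DOT1L was called lower (-0.22, adjusted p = 0.00928), as was DNMT3A (-0.22, adjusted p = 0.015). That made 3 members called in that table in place of 1, and the share of all genes called in that setting is not given here. DOT1L shares exonic bases with PLEKHJ1 on the other strand, which was at 0.13 (log2 fold change, adjusted p = 0.241) under methionine and 0.05 (adjusted p = 0.56) under tryptophan restriction.

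Methionine is the precursor of SAM, and its effect was therefore set beside each of the others by testing the difference between 2 responses. Compared with histidine, the fold change of 5 members was lower under methionine restriction and of none higher. Of all genes, 34.4% were called in that comparison (18.6% lower). In these counts lower and higher compare 2 fold changes, not levels. EZH2, counted as lower against histidine, itself rose under restriction of either amino acid. The comparison with phenylalanine gave 2 lower and 1 higher (29.4% of genes, with 14.3% lower and 15.1% higher). Compared with isoleucine 5 were lower (37.2% of genes called, 18% lower), with leucine 6 (37.2%, 18% lower) and with valine 3 (28.3%, 13.3% lower). Against tryptophan 2 were lower and 4 higher, where 53.6% of genes were called (25% lower and 28.6% higher). The isoleucine, leucine and valine comparisons share their controls, and all 6 share the methionine libraries, so their counts are not independent.

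DNMT1 responded more strongly downwards to methionine than to every other amino acid except tryptophan. The differences were -1.12 from histidine (SE 0.29, adjusted p = 0.00424), -0.94 from phenylalanine (0.00566), -1.09 from isoleucine (0.00164), -1.29 from leucine (1.58e-04) and -0.83 from valine (0.00857). All 5 remained called in every alternative setting tried. From tryptophan the difference was 0.26 (SE 0.21, adjusted p = 0.294), which neither shows a difference nor equality. The fold change of DNMT3A was lower under methionine than under histidine (-0.55, adjusted p = 6.28e-04), tryptophan (-0.65, 5.01e-06), isoleucine (-0.38, 0.0131), leucine (-0.46, 0.00428) and valine (-0.47, 0.00852). The isoleucine and leucine differences were not called with equal totals (adjusted p = 0.147 and 0.0589). Only the comparison with phenylalanine gave no call for DNMT3A in the deposited scaling (-0.21, adjusted p = 0.277).

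EZH2 rose less under methionine than under histidine restriction (-0.41, SE 0.09, adjusted p = 0.00147). It differed most from its response to tryptophan (0.85, SE 0.10, adjusted p = 1.68e-07). The fold change of EHMT2 was lower under methionine than under histidine (-0.62, 0.00225), phenylalanine (-0.53, 0.024), isoleucine (-0.56, 0.00324) and leucine (-0.46, 0.0217, or 0.056 without BCAA control 4). That of SUV39H1 was lower than under isoleucine (-0.42, 0.0193) and leucine (-0.54, 0.00895), and less negative than under tryptophan (0.47, 0.00175). In the comparison with tryptophan the fold change of KMT2A was higher (0.83, 0.0015), and that of DNMT3B was lower (-0.60, 0.0237). EHMT1 (0.27, 0.0468) was at the edge, and its call ended in 16 of 25 alternative settings (0.16 with equal totals). The fold change of DOT1L was lower under methionine than under histidine (-0.57, 0.00122). Its differences from isoleucine, leucine and valine (-0.39, -0.41 and -0.45) had adjusted p of 0.0299 to 0.034 and were not called with equal totals. The differences of KMT2A from leucine (-0.78, 0.0336) and of SETDB1 from phenylalanine (0.68, 0.0337) were also called, and were lost in 12 of 25 and 9 of 26 alternative settings. Without BCAA control 1 the KMT2A difference was -0.49 (adjusted p = 0.0594).

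**Figure D4:**
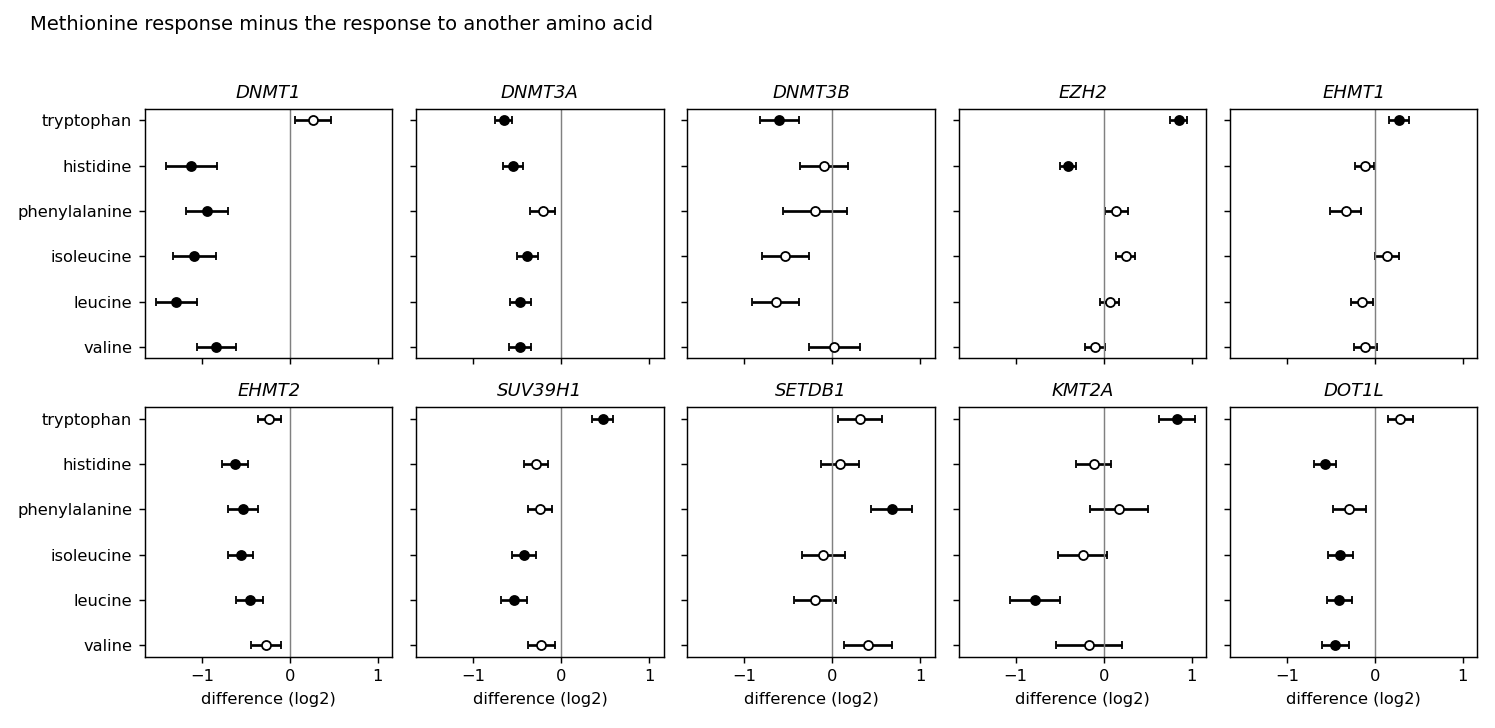
Difference between the methionine response and the response to each other amino acid (log2 scale), 1 panel per gene and 1 row per amino acid. Points are estimates and whiskers 1 SE; filled points have a limma adjusted p below 0.05. DNMT1 lies left of 0 for 5 amino acids at -1.29 to -0.83, and EZH2 lies furthest right for tryptophan at 0.85.

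Ratios of 2 mRNAs within a library do not depend on how the library was scaled. EZH2 over DNMT1 was 2.00 (range 1.56 to 2.94) in methionine-restricted libraries, against 0.934 (range 0.612 to 1.45) in controls. The same ratio was 2.64 (range 2.16 to 2.98) under tryptophan restriction, against 1.58 (range 1.38 to 1.86) in controls, although EZH2 itself moved in opposite directions in these tables. It was also apart under valine restriction, 2.32 (range 2.17 to 2.63) against 1.62 (range 1.40 to 2.07) in controls. EZH2 over EZH1, the other catalytic subunit of Polycomb repressive complex 2 (singled out after its values were seen), was 3.54 (range 3.26 to 4.41) under histidine restriction, against 2.44 (range 1.95 to 2.71) in controls. Under methionine restriction it was 3.91 (range 3.44 to 4.25), against 2.27 (range 1.88 to 2.63) in controls, and there EZH1 itself fell (-0.50, adjusted p = 6.54e-04). Under tryptophan restriction the ratio was lower, 4.21 (range 4.11 to 4.38) against 7.48 (range 6.14 to 7.90) in controls. DNMT3A over DNMT1 was 1.99 (range 1.72 to 2.12) under tryptophan restriction, against 0.642 (range 0.615 to 0.858) in controls, without overlap, whereas under methionine restriction the ranges overlapped, 2.09 (range 1.80 to 2.81) against 1.49 (range 1.13 to 1.94) in controls. These ratios shift relative levels and do not show which of the 2 mRNAs stayed constant. EHMT2 over EHMT1 was apart under phenylalanine restriction, 1.53 (range 1.33 to 1.77) against 2.01 (range 1.83 to 2.09) in controls, and under valine restriction, 1.40 (range 1.37 to 1.57) against 1.95 (range 1.59 to 2.04) in controls, although neither gene was called there. Under methionine restriction it was 1.12 (range 0.896 to 1.33), against 1.68 (range 1.27 to 1.93) in controls, and overlapped.

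Genes that work beside these enzymes were read in the same tables. All 24 of 24 DNA replication genes fell under methionine and under tryptophan restriction, where 25.4% and 27.7% of all genes fell. Their medians were -1.30 and -1.34 (all genes 0.02 and 0.03), and 24 also fell with equal totals. MCM2, a subunit of the replicative helicase, was at 1797 ± 70.4 in methionine-restricted cells and 6490.0 ± 383 in controls, and at 3621 ± 196 in tryptophan-restricted cells and 10845 ± 587 in their controls (SD, n = 5 each). PCNA, the sliding clamp that DNMT1 binds, changed by -1.54 (adjusted p = 3.23e-09) and -1.50 (2.83e-10). The fall of DNMT1 thus stood beside a fall of replication mRNAs, whose part in it was not tested. DNMT1 over MCM2 was higher under tryptophan restriction, 0.409 (range 0.355 to 0.486) against 0.330 (range 0.252 to 0.348) in controls, and under histidine restriction, 0.441 (range 0.410 to 0.552) against 0.271 (range 0.155 to 0.303) in controls, and overlapped under methionine restriction, 0.645 (range 0.440 to 0.771) against 0.322 (range 0.221 to 0.467) in controls. Under histidine restriction 9 replication genes fell and 2 rose (12.3% and 15.6% of all genes), with MCM2 at -0.81 (adjusted p = 6.58e-06). Under leucine restriction 6 rose and none fell (3.41% and 4.33% of all genes).

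Of the 27 partner subunits, 11 fell and 7 rose under methionine restriction (median -0.08), and 20 fell and 1 rose under tryptophan restriction (median -0.33). Of all genes, 25.4% fell and 27.8% rose under methionine restriction, and 27.7% fell and 23.6% rose under tryptophan restriction. With equal totals 10 fell and 11 rose under methionine restriction, where the median turned to 0.05, and 11 fell and 3 rose under tryptophan restriction. UHRF1, which brings DNMT1 to replicated DNA, was at 2529 ± 139 in methionine-restricted cells and 4883 ± 551 in controls, and fell in both conditions (-0.94, adjusted p = 2.84e-07, and -1.01, 1.32e-07). The chromatin remodeller HELLS, which supports DNA methylation, fell by 1.54 (adjusted p = 1.44e-07) and 1.36 (2.09e-06), and RBBP7, a histone-binding subunit of Polycomb repressive complex 2, by 0.80 (3.95e-07) and 1.05 (1.38e-08). EED, which reads H3K27 methylation for EZH2, was at 544 ± 32.1 in tryptophan-restricted cells and 1777 ± 188 in controls (-1.70, adjusted p = 7.37e-10), and at -0.08 (adjusted p = 0.612) under methionine restriction. EED was picked after its values were seen.

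The other methyltransferases did not share a direction under methionine restriction. The counts below stand beside 53.2% of all genes called there (27.8% higher, 25.4% lower). Under tryptophan restriction 51.3% of all genes were called (23.6% higher, 27.7% lower). With most genes called, such counts do not by themselves set a list apart. Among 25 tested lysine methyltransferases beyond the 10, 10 rose and 5 fell (median 0.12), or 12 and 3 with equal totals (median 0.25). Under tryptophan restriction 2 rose and 9 fell (median -0.11), which equal totals turned to 8 higher and 3 lower (median 0.14). SETD2, the H3K36 trimethylase, rose to 5010.5 ± 258 in methionine-restricted cells, against 2004 ± 163 in controls (1.32, adjusted p = 3.95e-09). Under methionine restriction NSD1, an H3K36 dimethylase, rose by 0.91 (9.49e-07), whereas its relative NSD2 fell by 0.70 (4.90e-07). Of 8 arginine methyltransferases, 2 rose and 3 fell under methionine restriction, and 1 rose and 6 fell under tryptophan restriction (1 and 5 with equal totals). PRMT1, the main asymmetric dimethylase, fell in both (-0.55, adjusted p = 4.08e-04, and -1.32, 2.44e-08). CARM1 fell by 0.62 (1.31e-06) under methionine restriction, and PRMT6 rose there by 0.93 (1.17e-07). PRMT6 fell under tryptophan restriction (-0.68, adjusted p = 1.19e-06; -0.44 with equal totals). Enzymes that remove methyl marks were mixed as well, with 7 of 20 demethylases and TET genes higher and 6 lower under methionine restriction. Under tryptophan restriction 4 were higher and 7 lower, and with equal totals 7 higher and 2 lower. KDM1A, which demethylates H3K4, fell in both (-0.61, adjusted p = 8.87e-06, and -0.81, 7.97e-09), while KDM2A rose (0.62, 2.75e-06) and KDM4B fell (-0.73, 3.28e-06) under methionine restriction.

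Among genes of SAM supply, MAT2A and METTL16 were called higher under methionine and lower under tryptophan restriction. The test of the difference between the 2 responses is not given here for these genes. Of 9, 4 rose and 4 fell with methionine at 25%, where 27.8% of all genes rose and 25.4% fell. With tryptophan at 25% none rose and 5 fell (1 and 5 with equal totals), where 23.6% of all genes rose and 27.7% fell. MAT2A was at 14016 ± 488 in methionine-restricted cells and 5911 ± 780.2 in controls (1.25, adjusted p = 2.36e-08), and at 5388 ± 525 in tryptophan-restricted cells and 8607 ± 1064 in controls (-0.67, 1.41e-05). It also rose under leucine (0.75, 0.00464) and valine (0.76, 0.00766) restriction and fell under histidine restriction (-0.56, 0.0013). METTL16, the RNA methyltransferase that controls MAT2A splicing and stability, changed by 1.77 (6.21e-09) under methionine and -1.02 (1.86e-07) under tryptophan restriction. AHCY fell in both, to 41.8% of control (-1.26, 1.85e-09) and 71.7% (-0.48, 6.54e-05). With equal totals the tryptophan values were smaller, -0.24 (adjusted p = 0.0145) for AHCY and -0.43 (adjusted p = 8.60e-04) for MAT2A.

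**Figure D5:**
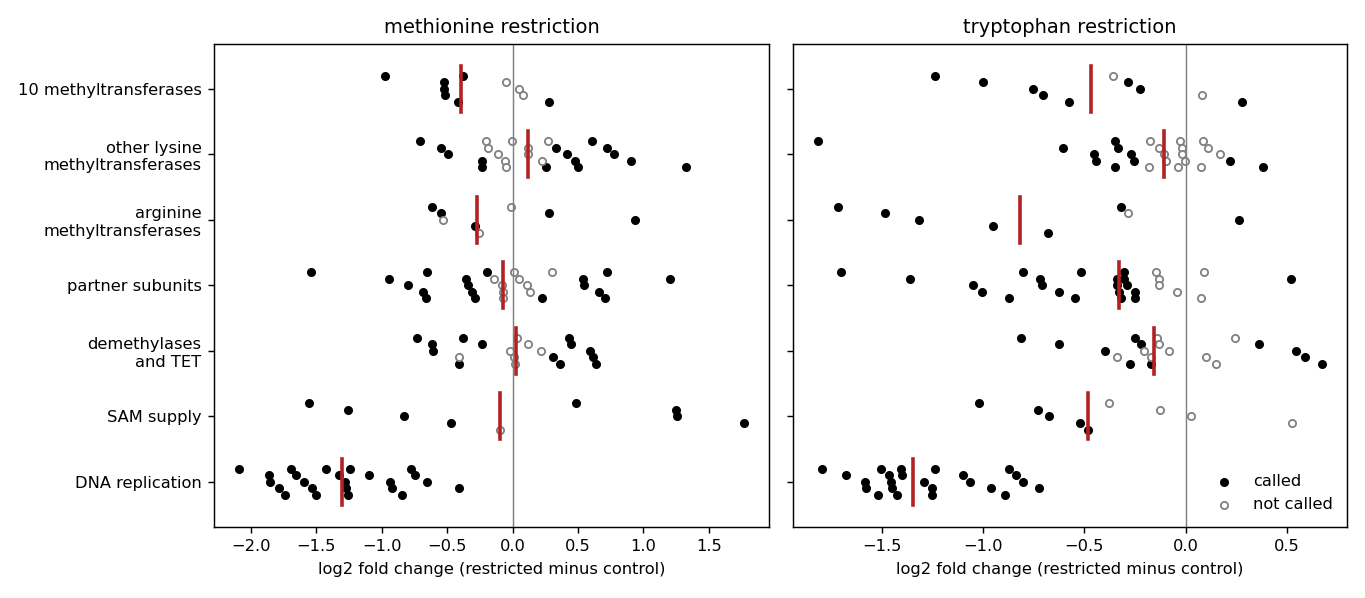
Log2 fold change (restricted minus control) of each gene in 7 gene groups under methionine (left) and tryptophan (right) restriction. Each point is a gene, filled where the limma adjusted p is below 0.05, and red bars are group medians; the DNA replication genes all lie left of 0, and the 10 methyltransferases have medians of -0.40 and -0.47.

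Among 15510 genes tested in all 7 tables, those whose 7 log2 fold changes lay nearest to a member's own were found by Euclidean distance, as a description. Nearest to DNMT1 were PMAIP1 (distance 0.24) and WDR76 (0.32), and nearest to SUV39H1 were TNFRSF21 (0.23) and CDCA4 (0.27). Those nearest to EZH2 were ZNF567 (0.33) and UCHL5 (0.36). For DOT1L they were UBE2V1 (0.17) and BAG2 (0.22), for EHMT2 MAP6D1 (0.19) and APIP (0.22), for DNMT3A UACA (0.24) and SLC25A24 (0.26), and for DNMT3B RTF1 (0.29) and XRN1 (0.30). The isoleucine, leucine and valine values in each set share their controls.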

How the data were processed

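The deposited values are normalised counts, a signal that the authors made per table with DESeq2 (1.44.0) after kallisto (0.50.1), with FastQC (0.11.9) and GRCh38, per the submitters' processing notes. Libraries were strand-specific, per the labels' protocols; annotation release and strand setting: not given in the sources used here. Whole reads could not be recovered, so no count model was used. In each table log2(normalised count + 1) of genes with a mean of at least 10 was fitted with limma (3.58.1, R 4.3.3, intensity trend), with Benjamini-Hochberg adjustment over all genes of the table and calls below 0.05; differences between 2 responses were interaction terms. The fit was tested on simulated data with independent noise for each gene. That simulation held no deviations shared across a library, and its outcome is not given here. Named genes were all 10 members, up to 3 genes of each other list by smallest adjusted p under methionine restriction, MAT2A, AHCY, METTL16, MCM2 and PCNA, and the 2 genes nearest to each member called under methionine restriction. The members and lists were chosen with earlier results of these data known. Alternatives were a pseudocount of 5, no filter, TMM factors, equal totals, a replicate block and leaving out libraries; leaving out the 4 libraries low in long transcripts was chosen after seeing the data. Positions are from GENCODE on GRCh38.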

Additional observations from a re-analysis of the deposited data

Results flagged for a closer look

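Among 140 groups of libraries examined for the 10 genes, 6 held a library far from the others of its group, and chance alone marks about 1 group in 20. The 140 count the BCAA controls anew in the isoleucine, leucine and valine tables, so they are not all distinct. DOT1L was low in histidine control 5 (2198, others 2812 to 3055) and in phenylalanine control 1 (1698, others 2933 to 3009). KMT2A was high in methionine restricted library 3 (3370.4, others 2436 to 2584). DNMT1 was low in tryptophan control 3 (2817, others 3512 to 3778). DNMT3B was high in tryptophan restricted library 1 (318, others 238 to 257) and low in valine restricted library 2 (82.3, others 133 to 151).

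Of 60 differences tested between the methionine response and another amino acid's response, 28 had a limma adjusted p below 0.05. Of all genes, between 28.3% (valine) and 53.6% (tryptophan) were called per difference. The 60 are not independent, as all share the methionine libraries, and the isoleucine, leucine and valine differences share their controls. On the log2 scale, methionine minus histidine was -1.12 for DNMT1, -0.55 for DNMT3A, -0.41 for EZH2, -0.62 for EHMT2 and -0.57 for DOT1L. Methionine minus phenylalanine was -0.94 for DNMT1, -0.53 for EHMT2 and 0.68 for SETDB1. Methionine minus tryptophan was -0.65 for DNMT3A, -0.60 for DNMT3B, 0.85 for EZH2, 0.27 for EHMT1, 0.47 for SUV39H1 and 0.83 for KMT2A. Methionine minus isoleucine was -1.09 for DNMT1, -0.38 for DNMT3A, -0.56 for EHMT2, -0.42 for SUV39H1 and -0.39 for DOT1L. Methionine minus leucine was -1.29 for DNMT1, -0.46 for DNMT3A, -0.46 for EHMT2, -0.54 for SUV39H1, -0.78 for KMT2A and -0.41 for DOT1L. Methionine minus valine was -0.83 for DNMT1, -0.47 for DNMT3A and -0.45 for DOT1L.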

How the results depend on the processing

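Members called under methionine restriction numbered 6 to 7 and under tryptophan restriction 7 to 9 when single libraries were left out, 1 to 2 under histidine, 1 under phenylalanine, 0 to 2 under leucine, 0 to 1 under valine and 0 under isoleucine. The count under histidine was 2 without histidine control 5. Without the libraries low in long transcripts, a choice made after seeing the data, it was 3 under phenylalanine and 2 under leucine. Under valine the count was 0 with no filter. The shares of all genes called in these altered settings are not given here, so a changed count is not read as a result about the members. For methionine minus leucine the count was 3 with equal totals, and 4 to 7 over single left-out libraries. The other differences gave 5 (histidine), 4 to 7 (isoleucine), 5 to 7 (tryptophan), 2 to 3 (phenylalanine) and 2 to 3 (valine). EHMT1 under tryptophan turned to 0.0194 with equal totals, and KMT2A under valine to -0.0452 without BCAA control 1 (-0.0452 to 0.505 over single left-out libraries). The cause was not tested. DNMT3B was called higher under tryptophan restriction with equal totals (0.32, limma adjusted p = 0.0325). Of 130 member values, 70 were called in no setting, and 28 of these changed sign in at least 1.

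Equal totals moved the median of all genes by 0.13 under methionine, 0.12 under phenylalanine, 0.25 under tryptophan and 0.11 under valine restriction. The share of called genes that were higher was 62.6% in place of 52.2% (methionine), 67.0% in place of 40.3% (phenylalanine), 70.95% in place of 45.9% (tryptophan) and 63.7% in place of 41.1% (valine). Libraries of the same replicate number correlated above 0.1 in 3 of 32 pairs, so most showed no strong shared deviation. A weak or absent correlation cannot settle whether the numbers pair cultures, which the labels do not say. With the replicate block 0 members were called under leucine, 2 under valine and 3 for methionine minus leucine. The block ended the calls of EHMT1 under tryptophan (adjusted p = 0.0627), KMT2A under leucine (0.0646), EHMT1 for methionine minus tryptophan (0.0539), SUV39H1 for methionine minus isoleucine (0.0667), and SUV39H1 (0.0516), KMT2A (0.0641) and DOT1L (0.0514) for methionine minus leucine. It added SETDB1 under tryptophan (-0.36, adjusted p = 0.047) and KMT2A under valine (0.50, 0.0326). The block changed no other member's call. The BCAA controls hold no library numbered 2, so the block also left out restricted library 2 of the isoleucine, leucine and valine groups. Changes in those comparisons therefore mix the block with the loss of a library. Leaving out valine restricted library 2 without the block also put KMT2A at 0.50 (limma adjusted p = 0.194). Normalised counts carry no read depth, so no counting interval is given.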
